A study of Mus musculus with 12 samples.

Results

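Proteasome genes were taken as every gene of the hearts' count table whose symbol begins with Psm, a letter from a to g and a digit. This rule found 50 of the 25171 loci in the table. By their known roles they were 8 genes of the 20S alpha ring, 8 of the 20S beta ring, 5 of the immunoproteasome, 6 ATPases and 3 other subunits of the 19S base, 8 subunits of the 19S lid, 4 other activators and inhibitors, and 7 assembly chaperones. The last symbol, Psmc3ip, matches the rule but belongs to a recombination factor that is not part of the proteasome. Psmb11, a subunit of thymic epithelium, had at most 4 counts in any heart and was not tested, which left 49 genes in every comparison.

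The proteasome is the protease that degrades proteins marked with ubiquitin chains. Its barrel-shaped core particle, called 20S, holds 3 kinds of catalytic site inside rings of alpha and beta subunits, and the 19S regulatory particle at its ends binds ubiquitin chains, removes them and threads the unfolded protein inside with a ring of ATPases. Interferon induces 3 replacement catalytic subunits, Psmb8, Psmb9 and Psmb10, which take the places of Psmb5, Psmb6 and Psmb7 and form the immunoproteasome, together with the activator genes Psme1 and Psme2 (PA28 alpha and beta), and the peptides it cuts feed antigen presentation by class I molecules. In heart muscle, whose cells are long-lived, the proteasome clears damaged and misfolded sarcomeric and cytosolic proteins.

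Bulk RNA of 12 mouse hearts was compared, 3 in each of 4 groups. Every group carries, per the labels and the study's methods, a conditional human NOTCH2NLC transgene with 98 GGC repeats behind a loxP-flanked stop at Rosa26. EIIa-tg hearts also carry E2a-Cre (EIIa-Cre in the study), which acts in the whole body, and were taken at postnatal day 30, as were EIIa-ctl hearts of littermates without Cre. Myh6-tg and Myh6-ctl hearts are both given the Myh6-creERT2 genotype, a tamoxifen-inducible Cre driven by a cardiomyocyte promoter. Myh6-tg mice were given 3 tamoxifen injections of 75 mg/kg on alternate days starting at day 60, Myh6-ctl mice corn oil, and both were taken at day 90. Thus the Myh6 comparison sets tamoxifen against oil and also, by the labels, recombined against unrecombined transgene, which cannot be told apart. Reads of Esr1, part of which is in creERT2, also differed between the Myh6 groups (given below). Presence of the Cre may thus differ between them too, and it cannot be told apart from the rest. The models differ in age, Cre, reach and duration of expression. The genotype label of 2 EIIa-tg hearts carries another line name than the rest, and the groups here follow the titles. The transgene's own reads were not analysed here.

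Libraries held between 38343106 and 50969834 counts. The extraction text of the labels names brain, but the cardiomyocyte markers Myh6, Tnnt2, Tnni3, Actc1 and Ryr2 summed to between 7731 and 34074 CPM (counts scaled by library size, normalized by TMM) in every heart. Esr1, whose ligand-binding domain is part of creERT2, had between 1030 and 2330 CPM in Myh6-ctl but between 1.00 and 2.52 CPM in Myh6-tg and between 0.408 and 1.23 CPM in the EIIa groups, so its reads went against the shared Myh6-creERT2 label of one Myh6 group, and groups are named here by their labels. Mitochondrially encoded genes took between 31.8% and 38.3% of the counts in Myh6-ctl and between 15.5% and 18.6% in Myh6-tg. Y-linked genes had more than 100 counts only in replicate 1 of each group. Replicate 1 of Myh6-tg stood apart from the other 2 in its markers, with a cardiomyocyte sum of 25672 against 10155 and 7731 CPM and a leukocyte sum (Ptprc, Coro1a, Laptm5, Cd52, Itgb2) of 240.2 against 130.2 and 123 CPM. In EIIa-tg it was replicate 2 whose cardiomyocyte sum was the highest, at 25073 against 12229 and 14060 CPM.

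The clearest pattern was in Myh6-tg hearts, where genes of the 19S particle rose, genes of the immunoproteasome fell, and the constitutive 20S genes did not pass the test under the main scaling. Here a gene was called changed at an adjusted p under 0.05 in edgeR's quasi-likelihood test, adjusted over all genes tested. In Myh6-tg 12 of the 49 genes were called higher, where 8.96% of all 15298 genes tested were, and 5 were called lower, where 9.38% were. The 12 comprised 10 of the 17 subunits of the 19S particle, the assembly chaperone Psmd5 and the inhibitor Psmf1. The 5 comprised 4 of the 5 immunoproteasome genes and Psme2b. The median log2 fold change was 0.38 over the 49 genes and 0.03 over all genes, and it was 0.65 over the 19S genes, 0.39 over 15 constitutive 20S genes and -1.09 over the immunoproteasome. These values are relative to the TMM scaling. With library size alone as the scaling the median of all genes moved to 0.43, and 31 members were then called higher and 4 lower, with the 19S genes still positive and the immunoproteasome genes still negative in 17 of 17 and 5 of 5. Of all genes, 3153 were then called higher and 854 lower. The higher and lower calls numbered 3 and 2 without Myh6-ctl replicate 1, 4 and 6 without Myh6-ctl replicate 3, 4 and 3 without Myh6-tg replicate 2, and 4 and 2 without Myh6-tg replicate 3. Over all genes the calls fell too, to 387 and 411, 688 and 949, 496 and 486, and 498 and 471 in the same order. At the stricter thresholds used in the study, which ask for an adjusted p under 0.01 with a change of 1 or more on the log2 scale, Psmd8, Psmc4 and Psmd11 were higher (1.92% of all genes) and Psmb8 was lower (2.05% of all genes). These thresholds were applied to edgeR's test here and in DESeq2 in the study.

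In EIIa-tg the changes were smaller and mostly upward. There 9 of the 49 genes were called higher against 8.65% of all 14908 genes, and 1, Psmg1, was called lower against 8.3%. The called genes were spread over the 20S core (Psma2, Psmb3, Psmb5), the 19S particle (Psmc3, Psmd4, Psmd7, Psmd11, Psmd13) and the chaperone Psmd10, and no immunoproteasome gene was among them. The median log2 fold change was 0.19 over the members and 0.02 over all genes, and 38 of 49 values were positive, where 51.4% of all genes were. With library size alone the median of all genes was 0.21, and 21 members were called higher and 0 lower, where 2531 and 642 of all genes were. Beside these changes, cardiomyocyte markers summed to between 12229 and 25073 CPM in EIIa-tg against 28110 to 34074 CPM in EIIa-ctl, with 1 of 5 (Ryr2) called lower. Fibroblast markers (Dcn, Pdgfra, Col1a1, Lum) summed to between 1572 and 2358 CPM against 963.3 to 1195 CPM, with 2 of 4 called higher, and endothelial markers (Pecam1, Cdh5, Kdr, Tie1, Egfl7) to between 660.7 and 753 CPM against 872.9 to 998.6 CPM, with 3 of 5 called lower. The mitochondrial share was 28.5% to 32.3% against 34.2% to 36.7%. The part of these values in the EIIa changes was not tested. The EIIa calls were not stable to the choice of hearts: without EIIa-ctl replicate 1, EIIa-ctl replicate 3, EIIa-tg replicate 1 or EIIa-tg replicate 3 no member was called higher, without EIIa-ctl replicate 2 there were 5, and without EIIa-tg replicate 2 there were 16. The calls over all genes fell with them, to at most 104 higher and 29 lower in the 4 fits that left no member. In the fits with 5 and 16, 1009 and 1969 of all genes were called higher.

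**Figure D1:**
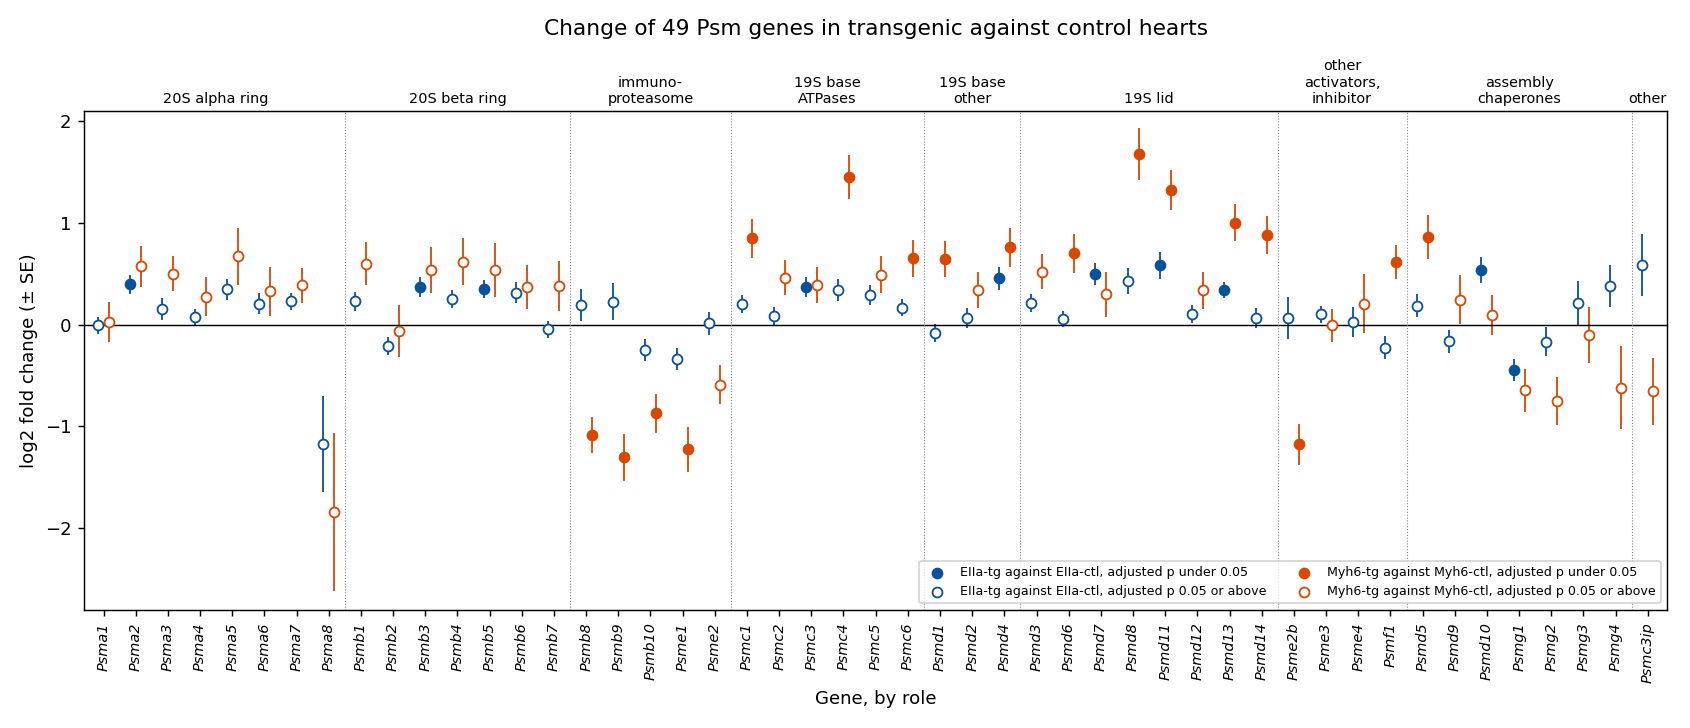
The log2 fold change with its standard error (vertical axis) of 49 Psm genes (horizontal axis, grouped by role) in EIIa-tg against EIIa-ctl (blue) and Myh6-tg against Myh6-ctl (orange), 3 hearts a group, where filled points passed an adjusted p of 0.05 in edgeR. In orange, 10 of 17 points of the 19S particle are filled above 0 and 4 of 5 points of the immunoproteasome are filled below 0, while in blue 5 of the 17 and 0 of the 5 are filled.

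The immunoproteasome genes were low in Myh6-tg hearts. Psmb8, the interferon-induced chymotrypsin-like subunit, had 26.5, 21.6 and 20.8 CPM in the Myh6-ctl hearts and 10.3, 11.2 and 10.96 CPM in the Myh6-tg hearts. Hearts of the Myh6 groups did not overlap for 24 of the 49 members in the higher direction and 10 in the lower one, where 20.6% and 19.6% of all genes did not, so that a lack of overlap alone was common. For Psmb8 every Myh6-tg heart was below every heart of the other groups, since the EIIa-ctl hearts had 15.4, 23.7 and 19.6 CPM and the EIIa-tg hearts 22.2, 22.4 and 22.7 CPM. Psmb8 was 2.12-fold lower in Myh6-tg (log2 fold change -1.09 ± 0.18 SE, adjusted p = 0.00869), and the call held without each of the 6 hearts in turn.

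Psmb9, the caspase-like site's replacement, had the largest fall of the group. It went from 7.67, 7.64 and 6.55 CPM in Myh6-ctl to 2.92, 3.19 and 2.73 CPM in Myh6-tg, while the EIIa hearts lay between 4.99 and 7.91 CPM. Its log2 fold change was -1.30 ± 0.23 SE (adjusted p = 0.0118), and without Myh6-ctl replicate 1 or Myh6-tg replicate 3 it stood at an adjusted p of up to 0.0562. Psmb10, the replacement of the trypsin-like site, had 39.4, 50.7 and 34.2 CPM in the Myh6-ctl hearts and 22.3, 24.1 and 21.6 CPM in the Myh6-tg hearts. The groups did not overlap, and the log2 fold change was -0.87 ± 0.19 SE (adjusted p = 0.0209), a call kept in 3 of the 6 fits that left out a heart and lost without Myh6-ctl replicate 1, Myh6-tg replicate 2 or Myh6-tg replicate 3, where the adjusted p reached 0.0907.

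Of the PA28 activator genes, the alpha subunit passed the test and the beta subunit did not. Psme1 had 94.4, 109 and 71.4 CPM in Myh6-ctl against 46.4, 38.5 and 32.9 CPM in Myh6-tg, and the hearts of both EIIa groups had 80.2 CPM or more. Its log2 fold change was -1.22 ± 0.22 SE (adjusted p = 0.0117), and without Myh6-ctl replicate 1, Myh6-tg replicate 2 or Myh6-tg replicate 3 the adjusted p was up to 0.0523. Psme2, its partner subunit, had 24.8, 22.2 and 21.0 CPM in Myh6-tg, where Myh6-ctl had 30.4, 41.6 and 30.3 CPM. These values did not overlap either, but the test gave an adjusted p of 0.0674 at a log2 fold change of -0.59 ± 0.19 SE. Psme2b, a second copy close in sequence to Psme2, was 4.76, 4.99 and 4.64 CPM in Myh6-tg against 11.4, 11.3 and 9.75 CPM in Myh6-ctl (log2 fold change -1.18 ± 0.20 SE, adjusted p = 0.0101). How reads of these near-identical sequences were shared between Psme2 and Psme2b by the counting is unknown, and both values are uncertain for that reason.

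In EIIa-tg the immunoproteasome gave no call in edgeR, where 2 of its 5 genes had an unadjusted p under 0.05, as did 5204 of all 14908 genes. DESeq2 called 1 lower, Psme1, and without EIIa-tg replicate 2 edgeR called 2 lower, Psme1 and Psmb10. Psmb8 (log2 fold change 0.19 ± 0.16 SE) and Psmb9 (0.22 ± 0.18 SE) overlapped between EIIa groups, and Psme2 was at 0.01 ± 0.11 SE, with a sign that turned to -0.055 and -0.04 without EIIa-ctl replicate 1 and EIIa-tg replicate 1. Psme1 had 104, 106 and 119 CPM in EIIa-ctl and 82.9, 97.8 and 80.2 CPM in EIIa-tg. Its groups did not overlap, and its log2 fold change of -0.34 ± 0.11 SE had an adjusted p of 0.068.

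**Figure D2:**
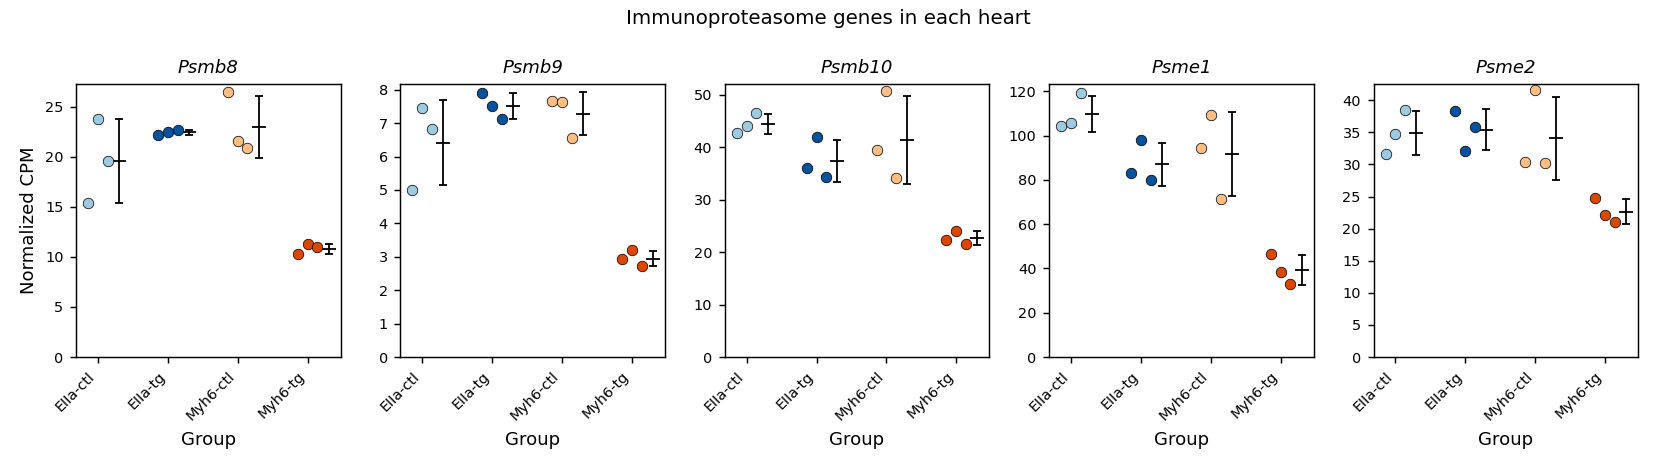
Normalized CPM (vertical axes, from 0) of the 5 immunoproteasome genes in each of 3 hearts per group (points), with the group mean and SD (black bar). All 3 Myh6-tg hearts lie below all 3 Myh6-ctl hearts in each panel, from 10.3 to 11.2 CPM for Psmb8 against 20.8 CPM or more.

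The genes of each of 2 pairs are neighbours. On the GENCODE M21 annotation of GRCm38, Psmb8 (chr17:34197721-34201454, plus strand) and Psmb9 (chr17:34181987-34187764, minus strand) are 9956 bases apart in the major histocompatibility region, next to the peptide transporter genes, and Psme1 (chr14:55578123-55581529, plus strand) and Psme2 (chr14:55587441-55591113, minus strand) are 5911 bases apart. Psmb10 is on another chromosome (chr8:105935735-105938444, minus strand). Exons of Psmb9 and Tap1 share 212 bases on opposite strands, 5.79% of the exonic length of Psmb9, and the library kit named in the labels is not stated to keep strand, so these reads cannot be told apart.

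Promoter sequences were taken from RefSeq on GRCm38.p6, as windows from 250 bases before to 50 after each start as RefSeq annotates it, which can lie inside the GENCODE span, and 42 of the 50 genes had at least 1 such window. They were searched on both strands for the interferon-stimulated response element GAAANNGAA, the STAT element TTCNNNGAA and the antioxidant response element TGACNNNGC, patterns bound by interferon regulatory factors, by STAT proteins and by NFE2L1 or NFE2L2 with small Maf partners. The first was found in 7 of 42 member genes (16.7%) against 9.76% of all 27025 genes with a window, the second in 3 (7.14%) against 9.55%, and the third in 6 (14.3%) against 13.99%. Within the immunoproteasome, 1 gene held an interferon-stimulated response element and 1 a STAT element. These are shown, with the pattern in capitals and 10 flanking bases a side, beside the antioxidant response element of Psmb5 and Psmb6, the constitutive catalytic subunits that had a window (Psmb7 had none and was not searched):
Psmb8, STAT element, chr17:34198098-34198106, beginning 97 bases before the start: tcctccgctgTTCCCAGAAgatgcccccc
Psme1, interferon-stimulated response element on the minus strand, chr14:55578504-55578512, beginning 10 bases after the start: gagctgtgctTTCGCTTTCccttcccgct
Psmb5, antioxidant response element, chr14:54618034-54618042, beginning 47 bases before the start: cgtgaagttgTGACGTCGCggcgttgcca
Psmb6, antioxidant response element, chr11:70525348-70525356, beginning 9 bases before the start: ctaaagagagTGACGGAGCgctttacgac
A match in letters is a description of the window and does not show binding.

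Because an immunosubunit competes with its constitutive partner for a place in the core, levels of the pairs were set against each other within each heart. This was done on the deposited FPKM values, fragment counts scaled by transcript length and library depth, in which levels of different genes can be compared and any scaling of the heart divides out. Psmb8 stood at 0.189, 0.0914 and 0.163 of Psmb5 in the Myh6-ctl hearts and at 0.0503, 0.0410 and 0.0426 of it in the Myh6-tg hearts, a ratio 3.18-fold lower. Psmb9 stood at 0.0594 ± 0.0125 of Psmb6 in Myh6-ctl (mean ± SD, n = 3) and at 0.0180 ± 0.00119 in Myh6-tg, 3.25-fold lower. Psmb10 stood at 0.348 ± 0.0346 of Psmb7 in Myh6-ctl and at 0.144 ± 0.0147 in Myh6-tg, 2.41-fold lower. None of the 3 ratios overlapped between these groups. In the EIIa groups the same ratios overlapped and differed by 1.10-fold, 1.08-fold and 1.16-fold.

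Summed over the 6 catalytic genes, the 3 immunosubunits made up 16.9%, 12.7% and 16.3% of the FPKM in Myh6-ctl hearts and 6.14%, 6.24% and 6.22% in Myh6-tg hearts. The EIIa-ctl hearts had 13.6%, 15.2% and 15.3% and the EIIa-tg hearts 11.5%, 13.9% and 11.6%. The Myh6-tg hearts lay lowest of the 4 groups, with an SD of 0.0519 percentage points. The log2 change of each ratio in Myh6-tg kept its sign without each of the 6 hearts in turn, between -1.98 and -1.46 for Psmb8 to Psmb5.

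Genes of class I antigen processing and of interferon signalling were listed beside the immunoproteasome. In EIIa-tg 0 of 11 such genes were called and 2 had an unadjusted p under 0.05, as did 5204 of all 14908 genes. In Myh6-tg 5 of the 11 fell, where 9.38% of all genes did, and none rose, where 8.96% did. The list median in Myh6-tg was -0.57 on the log2 scale against 0.03 over all genes. Irf1, an interferon regulatory factor known to act on immunosubunit genes, fell by 1.10 on the log2 scale (adjusted p = 0.0124). Erap1, which trims peptides for class I molecules, and Nlrc5, the class I transactivator, had log2 fold changes of -1.02 and -1.74 and were also called. The peptide transporter gene Tap1, which overlaps Psmb9, was at -0.39 and not called.

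Leukocytes express immunoproteasome genes at high levels, so their markers are given beside these results. The leukocyte sum ranged from 106.6 to 158.5 CPM in Myh6-ctl and from 123 to 240.2 CPM in Myh6-tg, and of its 5 markers 1, Coro1a, was called lower and none higher. The macrophage sum (Cd68, Adgre1, Csf1r, C1qa) ranged from 234 to 322 CPM in Myh6-ctl and from 298.1 to 583.9 CPM in Myh6-tg, with 0 of 4 called. T and NK cell markers (Cd3e, Cd3g, Cd8a, Nkg7) summed to between 0.192 and 4.02 CPM over the Myh6 hearts, so these defining markers were near 0. Of the B cell markers, Ms4a1 had 0.384, 0.621 and 0.342 CPM in Myh6-ctl against 0, 0 and 0.0568 CPM in Myh6-tg and was called lower (17, 24 and 18 counts against 0, 0 and 3). Cd79a had 0.436 to 1.53 CPM among the former and 0.064 to 0.624 CPM among the latter and was not called. In EIIa-tg all 5 leukocyte and all 4 macrophage markers were called higher, with sums of 120.7 to 149.2 against 60.1 to 81.9 CPM for leukocytes. Endothelial markers summed to between 534.4 and 1162 CPM in Myh6-ctl and between 509.7 and 620.1 CPM in Myh6-tg, with 0 of 5 called. Fewer cells of a type and less RNA per cell cannot be told apart in bulk hearts, and the part of cell mixture in the fall of the immunoproteasome was not tested.

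In Myh6-tg 10 of the 17 subunits of the 19S particle rose, where 8.96% of all genes were called higher, and 7 did not pass. All 17 log2 fold changes were positive, from 0.30 to 1.68. Between 3 and 9 of the 10 calls were kept when a heart was left out. Of the 6 ATPases of the base, Psmc1, Psmc4 and Psmc6 were called higher. Of the 3 other base subunits, Psmd1, the scaffold, and Psmd4, a receptor for ubiquitin chains, were called higher. Of the 8 lid subunits, Psmd6, Psmd8, Psmd11, Psmd13 and Psmd14 were called, the last being the metalloprotease that takes ubiquitin chains off the substrate.

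Psmd8, a lid subunit, had the largest rise. It was at 91.9, 138 and 88.4 CPM in Myh6-ctl and at 266, 375 and 375 CPM in Myh6-tg. The lowest Myh6-tg heart, replicate 1, was still above the highest EIIa-tg heart, that group having 122, 114 and 156 CPM. The increase was 3.20-fold (log2 fold change 1.68 ± 0.26 SE, adjusted p = 0.00718), and the call held without each of the 6 hearts in turn.

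Psmc4, an ATPase of the base ring, had 58.4, 83.8 and 56.2 CPM in Myh6-ctl against 160, 198 and 184 CPM in Myh6-tg. No heart of another group exceeded 91.5 CPM. The increase was 2.73-fold (log2 fold change 1.45 ± 0.22 SE, adjusted p = 0.00684), and it held without each heart. Psmd11, a lid subunit known to promote proteasome assembly and activity in stem cells, had 108, 157 and 150 CPM in Myh6-tg, where Myh6-ctl had 55.4, 52.1 and 58.8 CPM, and it too kept its call without each heart (log2 fold change 1.32 ± 0.20 SE, adjusted p = 0.00685).

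Replicate 1 of Myh6-tg was the lowest of its group for these 3 genes but not for all of the particle. Psmd13, a lid subunit, had 58.2, 66.5 and 59.2 CPM in the Myh6-ctl hearts and 146, 114 and 108 CPM in the Myh6-tg hearts (log2 fold change 1.00 ± 0.18 SE, adjusted p = 0.0122). Its exons share 342 bases with those of Sirt3 on the opposite strand, and it lost its call only without Myh6-ctl replicate 1 (adjusted p = 0.0578). Psmd4 had 70.1, 91.7 and 77.8 CPM in Myh6-ctl against 157, 128 and 121 CPM in Myh6-tg (log2 fold change 0.76 ± 0.19 SE, adjusted p = 0.0311). Psmd14 had 84.2, 92.6 and 88.7 CPM in Myh6-tg, where Myh6-ctl had 41.3, 59.3 and 43.9 CPM (log2 fold change 0.88 ± 0.19 SE, adjusted p = 0.0195). The Myh6 groups did not overlap in any of the 3.

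The other called subunits moved by less, with log2 fold changes of 0.85 for Psmc1, 0.65 for Psmc6, 0.64 for Psmd1 and 0.70 for Psmd6 at adjusted p between 0.0232 and 0.0431. Psmc2, Psmc3, Psmc5, Psmd2, Psmd3, Psmd7 and Psmd12 were at log2 fold changes of 0.30 to 0.52 and were not called. The rise of the 10 genes depended on the hearts used: 3 kept their call without Myh6-ctl replicate 1, and 4 did without Myh6-ctl replicate 3, without Myh6-tg replicate 2 and without Myh6-tg replicate 3. Without Myh6-ctl replicate 2 there were 8 of the 10, and without Myh6-tg replicate 1 there were 9, where 842 and 2043 of all genes were called higher. The immunoproteasome calls numbered 1, 4, 4, 4, 2 and 1 of 4 when Myh6-ctl replicates 1, 2 and 3 and then Myh6-tg replicates 1, 2 and 3 were left out. The groups of these results also differed in the heart's makeup: cardiomyocyte markers summed to between 22201 and 29112 CPM in Myh6-ctl and between 7731 and 25672 CPM in Myh6-tg, with 2 of 5 (Myh6, Tnni3) called lower. Fibroblast markers summed to between 1296 and 1583 CPM in the former and between 1433 and 3217 CPM in the latter, with 2 of 4 called higher. The part of these differences, and of the mitochondrial share, in the rise of the 19S genes was not tested.

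**Figure D3:**
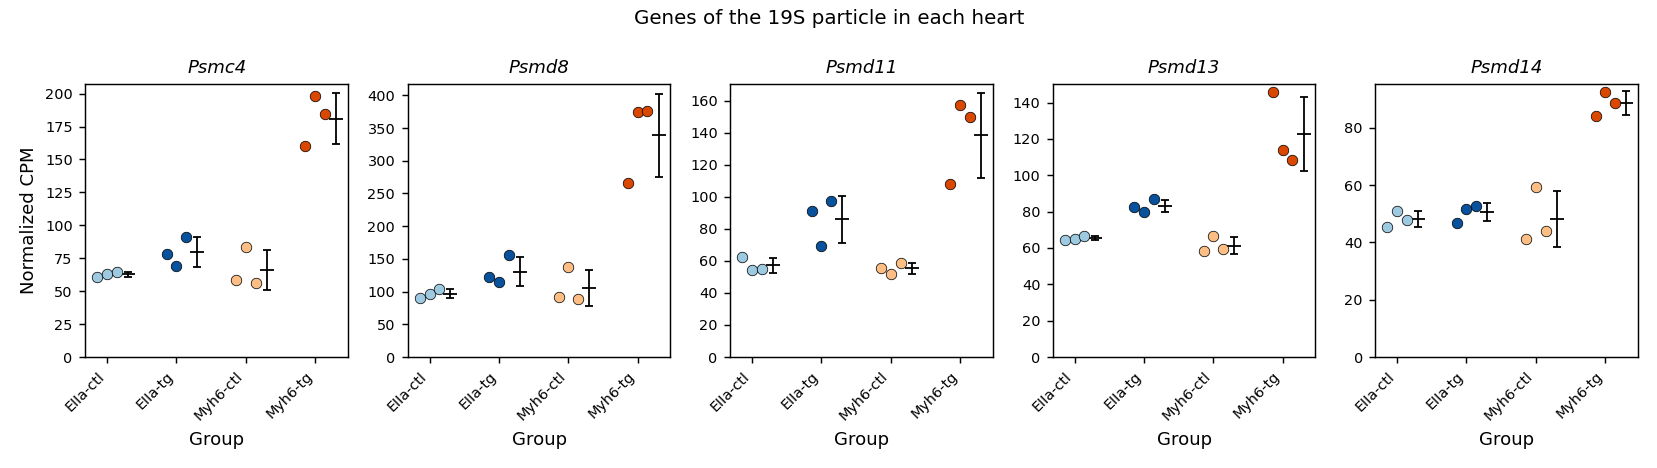
Normalized CPM (vertical axes, from 0) of 5 genes of the 19S particle in each of 3 hearts per group (points), with the group mean and SD (black bar). Myh6-tg hearts lie above all hearts of the other 3 groups in each panel, at 266 to 375 CPM for Psmd8 against at most 156 CPM elsewhere.

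The bases upstream of the 3 genes that passed the stricter thresholds upward are shown, up to the first base of their GENCODE exons, since these genes rose together most. They are 150 bases each, from RefSeq on GRCm38.p6, in the direction of the gene, with nothing in capitals because none of the 3 motifs above was found in these windows:
Psmc4, chr7:28050102-28050251, minus strand: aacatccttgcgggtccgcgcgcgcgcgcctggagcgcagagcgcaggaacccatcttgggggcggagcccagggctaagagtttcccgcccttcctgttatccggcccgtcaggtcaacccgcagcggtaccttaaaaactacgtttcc
Psmd8, chr7:29180702-29180851, minus strand: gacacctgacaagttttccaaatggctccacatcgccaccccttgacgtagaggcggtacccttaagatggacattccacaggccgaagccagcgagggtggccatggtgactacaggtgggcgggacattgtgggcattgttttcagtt
Psmd11, chr11:80428465-80428614, plus strand: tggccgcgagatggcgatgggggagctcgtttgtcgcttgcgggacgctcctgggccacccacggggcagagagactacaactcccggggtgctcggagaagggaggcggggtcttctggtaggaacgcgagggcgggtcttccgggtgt
The G and C content was 64.0%, 55.3% and 68.0% in this order.

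The subunits of the particle are present once each in the assembled complex, so their messages were also compared with each other within a heart. Psmc4 was at 0.685, 0.762 and 0.688 of the median FPKM of the other 5 ATPases in Myh6-ctl hearts and at 1.26, 1.40 and 1.53 of it in Myh6-tg hearts. It thus stood below that median in the 9 hearts of the other groups, where the ratio was at most 0.827, and above it in Myh6-tg. Psmd8 was at 1.60, 1.96 and 1.88 of the median of the other 7 lid subunits in Myh6-ctl and at 2.56, 4.11 and 4.28 of it in Myh6-tg. In the EIIa groups Psmd8 was at 1.47 to 1.54 in controls and 1.68 to 2.19 in EIIa-tg. The spread among the 8 lid genes of a heart, as a coefficient of variation of FPKM, was 39.1% ± 6.22 in Myh6-ctl and 68.5% ± 13.2 in Myh6-tg (mean ± SD, n = 3), and among the 6 ATPases it was 40.1% ± 5.13 and 32.2% ± 2.76. The median FPKM of the 17 subunits of the 19S particle over that of the 14 constitutive 20S genes (without Psma8 and Psmb11) was 0.626, 0.561 and 0.668 in Myh6-ctl and 0.746, 0.665 and 0.706 in Myh6-tg, values that overlapped.

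**Figure D4:**
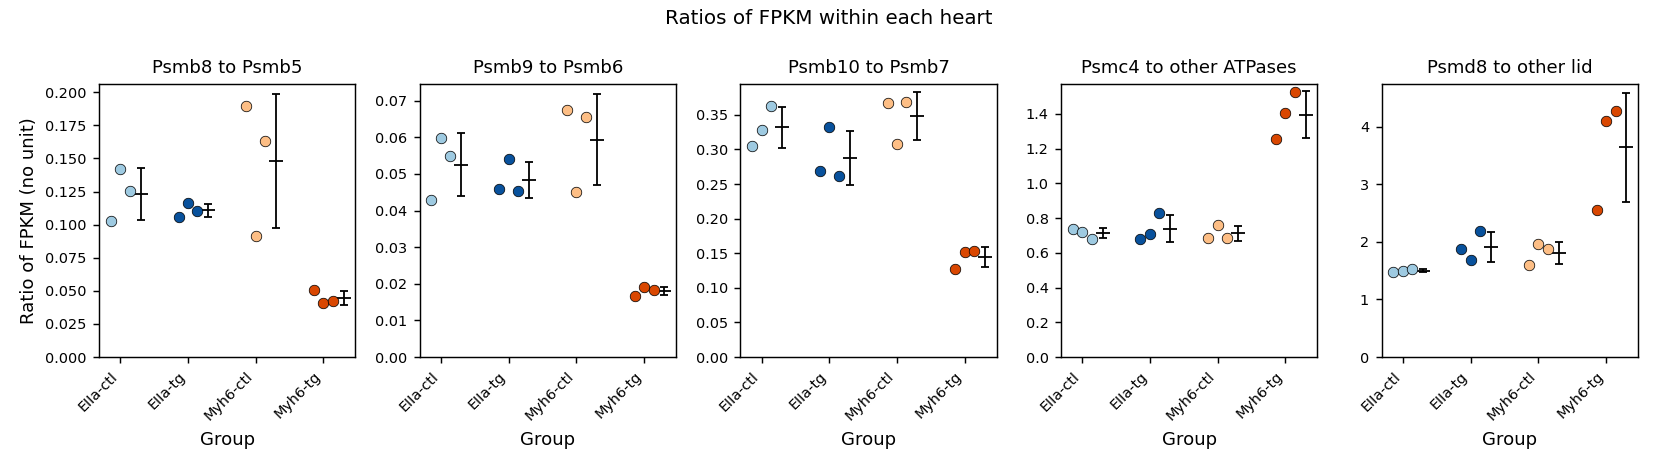
Ratios of FPKM within each heart (vertical axes, from 0, no unit) for the 3 immunosubunits over the constitutive subunit each replaces, for Psmc4 over the median of the other 5 ATPases and for Psmd8 over the median of the other 7 lid subunits, 3 hearts per group (points) with mean and SD (black bar). The Myh6-tg hearts lie below all others in the first 3 panels and above all others in the last 2, with Psmc4 at 1.26 to 1.53 against at most 0.827.

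The constitutive 20S core gave no call in Myh6-tg. Of its 15 tested genes 13 had a positive log2 fold change, where 52.1% of all genes did. An unadjusted p under 0.05 was found for 7 of them and for 5210 of all 15298 genes. The number that passed the adjustment was 0, in DESeq2 as in edgeR. This count depended on the scaling and on the hearts: 12 of the 15 were called higher with library size alone, which moves the median of all genes to 0.43 and that of these 15 to 0.79. It was 7 with all 12 hearts in one fit, 1 with the replicate number as a block, 4 without Myh6-ctl replicate 2 and 1 without Myh6-tg replicate 1. In the same order 2475, 1493, 842 and 2043 of all genes were called higher. In the alpha ring the lowest p was that of Psma3, with 39.4, 52.8 and 42.8 CPM in the Myh6-ctl hearts and 58.8, 67.0 and 65.6 CPM in the Myh6-tg hearts (log2 fold change 0.50 ± 0.17 SE, adjusted p = 0.0829). In the beta ring it was that of Psmb1, with 111, 150 and 105 CPM in Myh6-ctl against 157, 208 and 191 CPM in Myh6-tg (log2 fold change 0.60 ± 0.21 SE, adjusted p = 0.0902). Both were higher in every Myh6-tg heart than in every Myh6-ctl heart, by less than the adjusted test requires.

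The 3 constitutive catalytic subunits varied widely among Myh6-ctl hearts. Psmb5, the chymotrypsin-like site, had 112, 150 and 141 CPM in Myh6-tg, where Myh6-ctl had 77.2, 130 and 70.7 CPM, at a log2 fold change of 0.54 with a 95% interval of -0.08 to 1.16. Psmb6 had 70.9, 100.03 and 60.9 CPM against 105, 102 and 92.8 CPM, with an interval of -0.13 to 0.87. Psmb7 had 95.3, 146 and 82.1 CPM against 155, 140 and 124 CPM, with an interval of -0.19 to 0.94. In all 3 genes Myh6-ctl replicate 2 was the high control and overlapped the Myh6-tg hearts. Psma8, a subunit of the testis, was at 0.414 to 1.20 CPM among Myh6-ctl hearts, 0.0651 to 0.341 CPM among Myh6-tg hearts, and was not called.

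That replicate was high in general. Of the 49 genes, 42 had their highest Myh6-ctl value in replicate 2 and 36 their lowest in replicate 3. These ranks depend on the TMM scaling. As a share of unscaled counts the members took 0.281%, 0.339% and 0.320% in Myh6-ctl replicates 1, 2 and 3, with replicate 1 the lowest. The sum of all members was 3238, 4111 and 3096 CPM in the Myh6-ctl hearts and 4945, 5094 and 4765 CPM in the Myh6-tg hearts. In EIIa-ctl it was 3528, 3484 and 3537 CPM, against 4034, 3804 and 4091 CPM in EIIa-tg. All Myh6-tg sums lay above all others. The median coefficient of variation of a member was 17.4% among the Myh6-ctl hearts and 10.51% among the Myh6-tg hearts, against 5.37% and 7.43% in the EIIa control and transgenic hearts. Without Myh6-ctl replicate 2 the calls in Myh6-tg were 13 higher and 5 lower, and without Myh6-tg replicate 1 they were 12 and 6. Of all genes, 842 and 913 were called in the former fit and 2043 and 2226 in the latter.

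**Figure D5:**
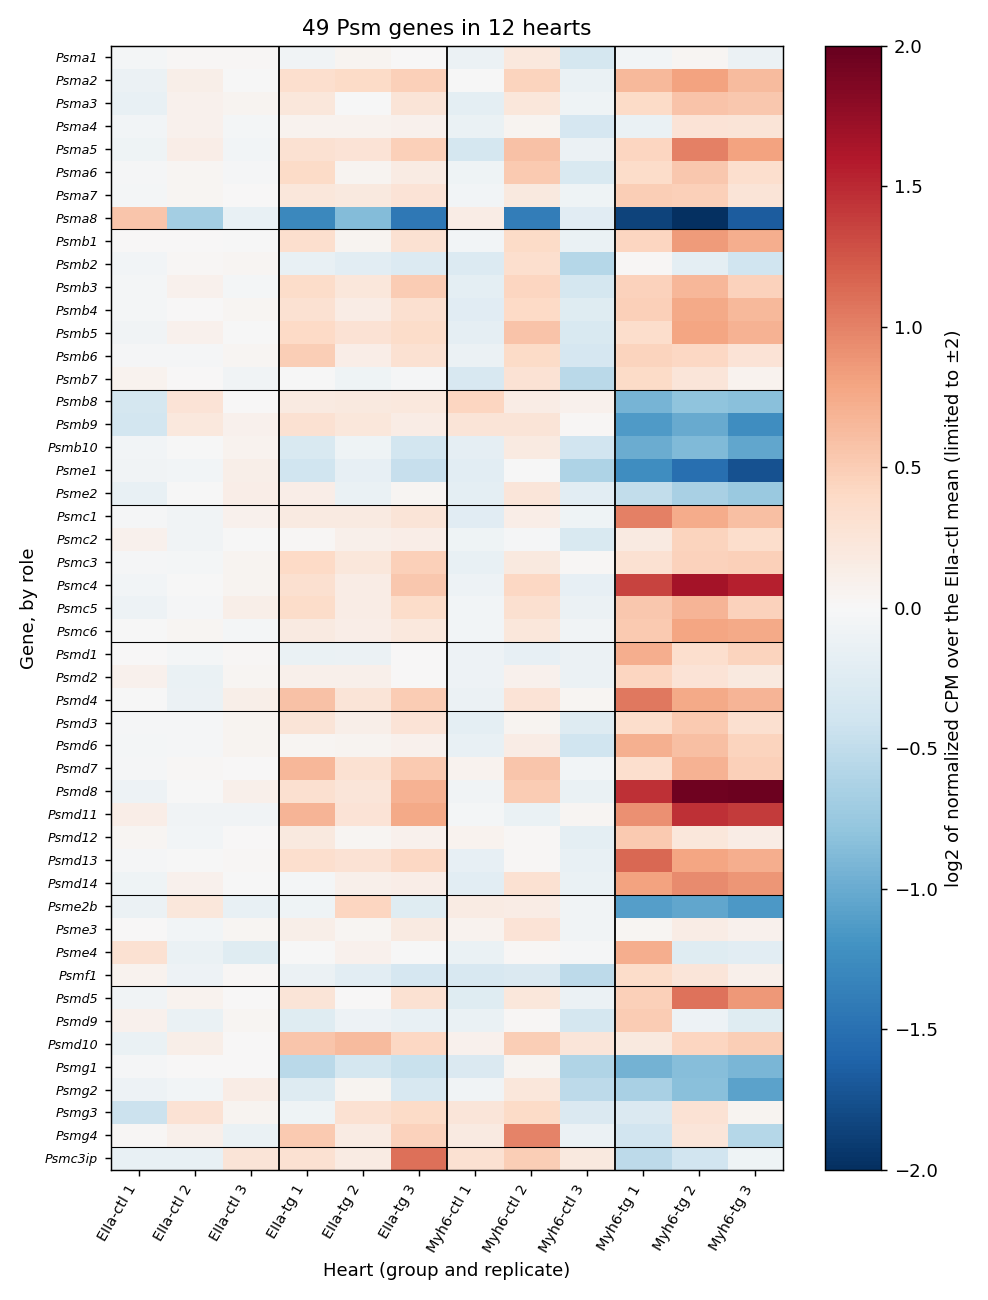
Normalized CPM of 49 Psm genes (rows, by role) in 12 hearts (columns, by group), as log2 of the value over the EIIa-ctl mean, with red above and blue below and the colour limited to ±2, which 1 value of Psma8 exceeds. The rows of Psmb8, Psmb9, Psmb10, Psme1 and Psme2 are blue and those of Psmc4, Psmd8 and Psmd11 dark red in the 3 Myh6-tg columns, and the second Myh6-ctl column is redder than its neighbours.

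Among the remaining roles, Psmf1 and Psmd5 rose in Myh6-tg. Psmf1, the inhibitor PI31, had 18.2, 18.7 and 15.8 CPM in the Myh6-ctl hearts and 29.5, 27.0 and 24.5 CPM in the Myh6-tg hearts (log2 fold change 0.62 ± 0.17 SE, adjusted p = 0.0393), a call lost whichever of the 6 hearts was left out, at an adjusted p of 0.0521 to 0.139. Psmd5, a chaperone that assembles the ATPase ring, had 21.1, 29.2 and 22.9 CPM in Myh6-ctl against 34.7, 52.9 and 45.4 CPM in Myh6-tg (log2 fold change 0.86 ± 0.22 SE, adjusted p = 0.0325). The chaperones Psmg1 and Psmg2, which start the alpha ring, had log2 fold changes of -0.65 and -0.75 with adjusted p of 0.0737 and 0.0617. Of the other activators, Psme3 (PA28 gamma of the nucleus) was at -0.01, and Psme4 (PA200) had 447 CPM in Myh6-tg replicate 1 against 228 and 233 CPM in the other 2, so that its log2 fold change of 0.21 ± 0.29 SE rested on that heart. Psmc3ip was at 2.62 to 3.18 CPM in Myh6-ctl and 1.58 to 2.14 CPM in Myh6-tg and was not called.

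The 9 members called higher in EIIa-tg rose by 0.34 to 0.58 on the log2 scale. Psmd7, a lid subunit, had 88.6, 91.1 and 90.2 CPM in EIIa-ctl and 142, 111 and 130 CPM in EIIa-tg (log2 fold change 0.50 ± 0.10 SE, adjusted p = 0.0231). The control hearts lay close together and below all 3 EIIa-tg hearts. Psmd11 had 62.6, 54.3 and 54.7 CPM against 91.5, 69.1 and 97.2 CPM (log2 fold change 0.58 ± 0.13 SE, adjusted p = 0.0279), and Psmd10, the chaperone known as gankyrin, had 8.33, 9.90 and 9.21 CPM against 13.5, 14.2 and 12.2 CPM (log2 fold change 0.54 ± 0.13 SE, adjusted p = 0.0311). In both genes the groups did not overlap, and the lowest EIIa-tg heart for Psmd11 was replicate 2, the one with the high cardiomyocyte sum.

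In the core, Psma2 had 65.2, 76.8 and 70.7 CPM in EIIa-ctl and 89.9, 92.7 and 98.5 CPM in EIIa-tg (log2 fold change 0.40 ± 0.09 SE, adjusted p = 0.03). Psmb5 had 83.0, 92.3 and 86.6 CPM against 115, 107 and 113 CPM (log2 fold change 0.35 ± 0.09 SE, adjusted p = 0.0321). Psmc3, an ATPase whose exons share 215 bases with Slc39a13 on the opposite strand, had 179, 177 and 189 CPM against 240.5, 214 and 252 CPM (log2 fold change 0.37 ± 0.10 SE, adjusted p = 0.0375). These 3 genes were higher in every EIIa-tg heart than in every EIIa-ctl heart, as were 23 of the 49 members and 20.3% of all genes.

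Of the last called genes, Psmd4 was higher in EIIa-tg by a log2 fold change of 0.46 ± 0.11 SE, with 75.0, 69.7 and 82.5 CPM in EIIa-ctl and 114, 90.9 and 108 CPM in EIIa-tg. Psmb3 and Psmd13 had log2 fold changes of 0.37 and 0.34. Psmg1 was the gene called lower, with 18.4, 18.97 and 18.94 CPM in EIIa-ctl and 12.9, 14.8 and 13.8 CPM in EIIa-tg (log2 fold change -0.45 ± 0.11 SE, adjusted p = 0.0316). Psmf1 had 24.0, 21.1 and 23.2 CPM in EIIa-ctl and 20.9, 19.7 and 18.0 CPM in EIIa-tg and was not called (adjusted p = 0.183). Psmd4, Psmd11 and Psmd13 were called higher in both models, whose controls are separate hearts.

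Whether the change differed between the models was tested itself, in all 12 hearts, as the log2 fold change in Myh6-tg minus that in EIIa-tg. It was more positive in Myh6-tg for 5 of 49 genes, where 1.65% of 15929 genes were, and more negative for 3, where 2.27% were. With library size alone these were 8 and 1 of the members, and 356 and 248 of all genes. The negative ones were Psmb9 at -1.53 ± 0.27 SE (adjusted p = 0.0112), Psmb8 at -1.28 ± 0.23 SE (adjusted p = 0.0118) and Psme2b at -1.24 ± 0.27 SE (adjusted p = 0.0255). The positive ones were Psmd8 at 1.25 ± 0.29 SE (adjusted p = 0.0329), Psmc4 at 1.11, Psmf1 at 0.84, Psmd14 at 0.81 and Psmd1 at 0.72. Psmb8 and Psmb9 kept this call without each of the 12 hearts in turn, while the positive ones numbered 0 without EIIa-ctl replicates 1 or 3 or EIIa-tg replicates 1 or 2. They numbered 1 without EIIa-ctl replicate 2, Myh6-ctl replicate 1, Myh6-tg replicate 2 or Myh6-tg replicate 3, 2 without EIIa-tg replicate 3 or Myh6-ctl replicate 3, and 9 without Myh6-tg replicate 1. Positive calls over all genes moved too, from 263 in the main fit to between 110 and 128 in the fits that left 0 members. They were between 129 and 235 in the fits that left 1 or 2, and 646 without Myh6-tg replicate 1. For Psmb10, Psme1 and Psme2 the differences were -0.62, -0.89 and -0.61 with adjusted p of 0.129, 0.0693 and 0.145. For Psmd11, called higher in both models, the difference was 0.73 ± 0.24 SE and not called, with an interval of 0.22 to 1.25 that leaves out 0 before adjustment. No constitutive 20S gene was called, the differences of the 3 catalytic ones having intervals of -0.45 to 0.81 for Psmb5, -0.47 to 0.57 for Psmb6 and -0.15 to 0.99 for Psmb7.

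The control groups gave no call among the members. Myh6-ctl differs from EIIa-ctl in age, Cre allele and oil injection together, which cannot be told apart. In edgeR 0 members were called higher and 0 lower in Myh6-ctl, where 0.02% and 0.0133% of 14990 genes were. In DESeq2 there were 0 in each direction too, where 284 and 132 of 25171 genes were called. With so few calls over all genes, 0 of 49 cannot show that the members were alike in the control groups. A single member, Psmf1, had an unadjusted p under 0.05 in edgeR, at a log2 fold change of -0.37, where 1700 of all 14990 genes had one. The median log2 fold change over the 49 genes was -0.000826 and the values ran from -0.37 to 0.43.

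Few genes that work beside the proteasome were called. Of 20 tested partners and shuttle factors, 4 rose and 1 fell in Myh6-tg, where 8.96% and 9.38% of all genes did, and 2 rose and 3 fell in EIIa-tg, where 8.65% and 8.3% did, so that the 2 and the 1 are near those shares. Zfand2a, an arsenite-inducible proteasome-associated protein, had 40.5, 34.4 and 33.6 CPM in Myh6-tg, where Myh6-ctl had 16.9, 12.5 and 17.8 CPM (log2 fold change 1.20, adjusted p = 0.00875). Ufd1 and Nploc4, cofactors of the segregase p97, rose by 1.02 and 0.63 on the log2 scale, and Adrm1, a ubiquitin receptor, by 0.81. The shuttle factor Ubqln4 fell by 0.70. In EIIa-tg the 19S-bound genes Uchl5 (a deubiquitinase) and Adrm1 rose, with log2 fold changes of 0.60 and 0.39, and Usp14, the other deubiquitinase of the particle, and Ecpas, a scaffold of the 26S complex, fell by 0.40 and 0.44.

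Of 8 known regulators of proteasome genes, Nfe2l1, the factor that raises proteasome genes when the proteasome is inhibited, was at 0.09 and not called in Myh6-tg, and Nfe2l2 was at -0.07. Its small Maf partners Mafk and Maff rose in Myh6-tg by 1.81 (adjusted p = 0.0037) and 1.54 (adjusted p = 0.00889) on the log2 scale, and Ddi2, the protease that activates it, by 0.66. In Myh6-tg 3 of the 8 were called higher, where 8.96% of all genes were. In EIIa-tg Maff, Mafg and Mafk were the 3 of 7 that rose, where 8.65% of all genes did, by 1.34, 0.77 and 0.80. Among 6 genes of ubiquitin and its activating enzymes, Uba1, the main activating enzyme, rose in Myh6-tg by 0.93 on the log2 scale, with 182, 226 and 181 CPM in the Myh6-ctl hearts and 267, 427 and 431 CPM in the Myh6-tg hearts, and Ubb, a polyubiquitin gene, rose in EIIa-tg by 0.47. In each model 1 of the 6 was called higher, where 8.96% (Myh6-tg) and 8.65% (EIIa-tg) of all genes were.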

How the data were processed

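Libraries of 12 hearts were made with a NEBNext Ultra RNA kit and the authors aligned the reads with HISAT2. The submitters' processing notes list HISAT2 2.0.4, StringTie 2.2.1 and DESeq2. The deposited table gives read counts per gene and the FPKM values the authors derived from them. The paper names GRCm38, while the submitters' notes list GRCm39 and mm10, so coordinates here come from GENCODE M21 and RefSeq on GRCm38 and not from the files. Groups follow the sample titles. Counts were tested in edgeR 4.0.16 (R 4.3.3) by glmQLFit and glmQLFTest after filterByExpr and TMM scaling, each model on its 6 hearts and the difference between models and their controls on the hearts concerned, with Benjamini-Hochberg adjustment over all genes tested. Values per heart are given for the immunoproteasome and catalytic genes, members past the study's thresholds and the member with the lowest p of each role in each model, and other called members were added. Of each outside list at most 4 genes with the lowest p were named, while Tap1, Nfe2l1 and Nfe2l2 were named after their values were seen. Some genes of these lists are not reported here. The members and lists were chosen with earlier results of these data known. Nothing in the labels says that same-numbered hearts are related. In the Myh6 groups their deviations correlated at 0.285, 0.233 and 0.258 over 13100 genes. The main fits used no pairing. In an alternative fit with the replicate number as a block, 13 members were called higher and 6 lower in Myh6-tg, with all 17 calls kept. Of all genes, 1493 were called higher and 1711 lower in that fit. Counts were also simulated with 200 changed genes. There the test recovered 73.5% (EIIa) and 51.5% (Myh6) of 3-fold changes, and 1% and 0% of 1.5-fold changes. More genes were called in the real data, and the adjustment depends on that number, so these shares do not apply to it directly. DESeq2 1.42.0, limma 3.58.1 on log2(FPKM + 1), other scalings, filters, covariates and leaving out each heart were the alternatives. P-values set the difference between groups against the variation among these hearts, an estimate that draws in part on other genes.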

Additional observations from a re-analysis of the deposited data

Results flagged for a closer look

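For 8 members the change in Myh6-tg differed from that in EIIa-tg by the interaction test in edgeR over all 12 hearts, the value being the log2 fold change in Myh6-tg minus that in EIIa-tg. It was -1.53 for Psmb9 (adjusted p = 0.0112), -1.28 for Psmb8 (adjusted p = 0.0118) and -1.24 for Psme2b (adjusted p = 0.0255). It was 1.25 for Psmd8 (adjusted p = 0.0329), 1.11 for Psmc4 (adjusted p = 0.0242), 0.84 for Psmf1 (adjusted p = 0.0255), 0.81 for Psmd14 (adjusted p = 0.0451) and 0.72 for Psmd1 (adjusted p = 0.0433). Psmb8 and Psmb9 were called in 12 of the 12 fits that each left out a heart, Psmf1 in 6, Psme2b in 5, Psmc4 in 4, Psmd8 in 3, and Psmd14 and Psmd1 in 2. Exons of Psmd1 overlap those of Htr2b on the opposite strand and of Gm21972 on the same strand, and the age, Cre and treatment of the models cannot be told apart.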

How the results depend on the processing

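Counts of members called are given as higher and lower. In EIIa-tg, 9 and 1 became 21 and 0 with library size alone, 22 and 0 in limma on log2(FPKM + 1) and 0 and 0 with all 12 hearts in one fit. At the study's thresholds they became 0 and 0, and DESeq2 called 2 lower. In edgeR 24 members had an unadjusted p under 0.05, as did 5204 of all 14908 genes. Over all genes, 1289 and 1238 became 2531 and 642 with library size alone and 2361 and 667 in limma. They became 176 and 51 with all 12 hearts in one fit and 0 and 0 at the study's thresholds. Those thresholds were applied to edgeR's test here. The study applied them in DESeq2 and reported genes passing them in both models, so the counts are not comparable. With the replicate number as a block the member calls were 0 and 0, where 1 and 0 of all genes were called. Same-numbered EIIa hearts had correlations of mixed sign (0.158, -0.140 and -0.120). Beside the number, replicate 1 of both EIIa groups shared Y-linked counts above 100. Without single hearts the range was 0 to 16 higher and 0 to 3 lower, and 0 to 1969 and 0 to 2110 over all genes. In Myh6-tg, 12 and 5 became 31 and 4 with library size alone and in limma, 23 and 8 with all 12 hearts in one fit and 3 and 1 at the study's thresholds, and 3 to 13 higher and 2 to 6 lower without single hearts. Over all genes, 1370 and 1435 became 3153 and 854 with library size alone and 3328 and 900 in limma. They became 2475 and 2574 with all 12 hearts in one fit and 294 and 314 at the study's thresholds. Without single hearts they ran from 387 to 2043 higher and from 411 to 2226 lower. For the difference between models, 5 and 3 became 8 and 1 with library size alone, 8 and 3 in limma, 3 and 3 without a filter on low counts, 0 and 0 at the study's thresholds, and 0 to 9 higher and 2 to 4 lower without single hearts. The replicate block left 4 and 3. Over all genes, 263 and 361 became 356 and 248 with library size alone and 539 and 241 in limma. They became 228 and 357 without the filter, 45 and 54 at the study's thresholds and 274 and 376 with the replicate block. Without single hearts they ran from 110 to 646 higher and from 167 to 1081 lower. Between controls 0 and 0 held under all of them, where at most 284 and 132 of all genes were called, both in DESeq2. In EIIa-tg the sign of Psmb7 turned to 0.15 with library size alone and to 0.15 in limma, and Psme2 lay between -0.055 (without EIIa-ctl replicate 1) and 0.0861 (without EIIa-ctl replicate 3), at -0.04 without EIIa-tg replicate 1. Of the values of single members under the alternatives, 595 kept direction and side of the threshold, 210 lost the call, 13 gained it and 4 turned sign. Psmb10 in Myh6-tg lost its call with library size alone. The cause of these shifts was not tested. A change of scaling shifts the log2 fold changes of all genes together, by an amount that differs between comparisons. With library size alone the median of all genes was 0.21 in EIIa-tg, 0.43 in Myh6-tg and 0.03 between controls. Psma8, Psmb11 and Psmc3ip had few counts, which limits their precision.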
